A study of Mus musculus with 8 samples.

Results

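PU.1 binding in the library titled knockdown Day 12- 8 was set against binding in the library titled restoration Day 12. Both are chromatin immunoprecipitation and sequencing (ChIP-seq) libraries of the mouse acute myeloid leukaemia line AML246, whose PU.1 is restored by doxycycline (Dox) and lowered again on its removal. The Day 12- 8 library carries a treatment label of 4 days off Dox, which differs from the 8 in its title, and it is called by its title throughout. The Day 12 library came from cells given Dox for 12 days. Both groups grew in IL-3 medium, started with Dox at 0.1 ug/mL and were sorted for total viable cells. The libraries were chosen by title as 2 of 8 labelled samples, 7 of which had a list of called sites. The other 5 lists are used below only as further readouts. They are Day 0 (untreated), Day 4 and Day 8 (4 and 8 days of Dox), Day 12- 4 (labelled as 12 days of Dox with a Cd11b-high sort) and Day 12- 12 (labelled as 8 days off Dox). All are from 1 cell line, each time point had 1 library, and nothing here gives the spread between cultures, so no test was made and no p-value is given. The lists hold binding sites and no expression values, so the identity of the cells could not be checked against markers.

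PU.1, encoded by Spi1, is a transcription factor of the ETS family that myeloid and B cells need in order to develop. ETS factors bind DNA around a GGAA core, and PU.1 is known to prefer purine-rich sequence before that core, as in GAGGAA. In myeloid cells PU.1 is known for binding distal elements with other lineage factors as well as promoters of genes for cytokine receptors, adhesion molecules and phagocyte enzymes. Lowered PU.1 is a known feature of some mouse leukaemia models, and its restoration is known to push such cells towards maturation.

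Each site is the summit of a called peak, in mm10 coordinates. The Day 12 list held 86271 of the 365360 sites of all 7 lists and was 4.04 times as long as the Day 12- 8 list. Sites of the 2 lists whose summits were at most 100 bp apart were called shared. Day 12 sites were kept if shared and missing if not, and Day 12- 8 sites with no Day 12 summit were new. A missing site is a site without a call, which does not show an absence of binding. Each site carries the authors' score, the −log10 of a q-value, which also depends on the unknown depth and control of its own library. Scores from the 2 libraries therefore stand side by side and do not measure a change in binding.

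The sequences under promoter summits show what the classes look like. Each line below gives 81 bases centred on a summit that lay upstream of a gene start, read on the strand of the gene from RefSeq promoter windows of the GRCm38.p6 assembly, with every GGAA core on either strand in capitals. The genes are those with the highest-scoring such sites of each class, for missing and new sites with no summit of the other list within 500 bp. Kept sites at these promoters scored 588 in Day 12- 8 and 434 in Day 12 for Dusp5, a phosphatase of nuclear ERK, and 380.0 and 432 for Atic, an enzyme of purine synthesis. The site at Tbc1d1 scored 362 in Day 12- 8 and 392 in Day 12, and the site at Kifc1, a mitotic kinesin, scored 337 and 473 in the same order of libraries.
Dusp5, chr19:53528912-53528992 (+ strand): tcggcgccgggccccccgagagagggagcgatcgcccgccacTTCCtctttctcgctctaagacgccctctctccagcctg
Atic, chr1:71557014-71557094 (+ strand): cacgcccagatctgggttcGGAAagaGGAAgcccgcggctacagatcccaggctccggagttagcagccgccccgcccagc
Tbc1d1, chr5:64230266-64230346 (+ strand): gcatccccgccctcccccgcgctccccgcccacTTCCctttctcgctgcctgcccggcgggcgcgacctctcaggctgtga
Kifc1, chr17:33890719-33890799 (- strand): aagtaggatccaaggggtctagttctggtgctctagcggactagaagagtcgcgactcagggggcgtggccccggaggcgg

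The missing sites shown next had Day 12 scores of 617 at Dok3, an adaptor that restrains immune receptor signalling, 487 at Osgin1, 461 at Elovl6, a fatty acid elongase, and 446 at Zfyve19. Their nearest Day 12- 8 summits were 5042, 12081, 1626 and 28823 bp away.
Dok3, chr13:55528546-55528626 (- strand): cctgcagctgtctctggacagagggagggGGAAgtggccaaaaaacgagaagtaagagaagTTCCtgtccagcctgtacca
Osgin1, chr8:119436960-119437040 (+ strand): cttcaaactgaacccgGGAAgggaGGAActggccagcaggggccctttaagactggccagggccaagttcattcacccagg
Elovl6, chr3:129532171-129532251 (+ strand): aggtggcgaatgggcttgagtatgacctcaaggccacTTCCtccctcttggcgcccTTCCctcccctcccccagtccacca
Zfyve19, chr2:119208521-119208601 (+ strand): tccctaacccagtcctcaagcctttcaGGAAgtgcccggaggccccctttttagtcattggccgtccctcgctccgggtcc

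The new sites had Day 12- 8 scores of 77.5 at Ranbp1, a cofactor of the GTPase Ran, 36.9 at Oard1, 33.9 at Akirin1 and 30.6 at Mnt, a partner of Max that opposes Myc. Their nearest Day 12 summits were 679, 820, 557 and 851 bp away, with Day 12 scores of 610.4, 351, 142 and 458.
Ranbp1, chr16:18248846-18248926 (- strand): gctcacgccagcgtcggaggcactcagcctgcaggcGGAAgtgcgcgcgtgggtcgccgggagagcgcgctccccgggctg
Oard1, chr17:48409814-48409894 (+ strand): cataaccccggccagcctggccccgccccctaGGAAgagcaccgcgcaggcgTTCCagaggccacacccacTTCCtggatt
Akirin1, chr4:123750328-123750408 (- strand): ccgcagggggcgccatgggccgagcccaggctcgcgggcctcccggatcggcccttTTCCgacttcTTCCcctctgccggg
Mnt, chr11:74830803-74830883 (+ strand): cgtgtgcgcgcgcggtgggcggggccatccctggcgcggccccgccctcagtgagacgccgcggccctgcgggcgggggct

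A GAGGAA stretch, on either strand, stood in the lines of Dusp5 and Atic among the kept sites and of Osgin1 and Elovl6 among the missing ones. None of the 4 new sequences held it, and the sequences at Kifc1 and Mnt held no GGAA at all. No match in these letters says nothing of the factor at these places.

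Site sharing was low over whole lists and high at the top of the Day 12- 8 list. The Day 12- 8 list was made up of 7227 shared and 14150 new sites, so 33.8% of it was shared (exact Clopper-Pearson 95% interval 33.2 to 34.4, counting error only). The same 7227 sites were 8.38% (8.19 to 8.56) of the Day 12 list. The other 79044 Day 12 sites were missing. To set lists of equal length against each other, as many of the highest-scoring Day 12 sites as the Day 12- 8 list holds, with a lowest score of 19.996, were compared with the whole Day 12- 8 list. Then 4750 sites were shared, or 22.2% (21.7 to 22.8) of each list, with 16627 new and 16627 missing.

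**Figure D1:**
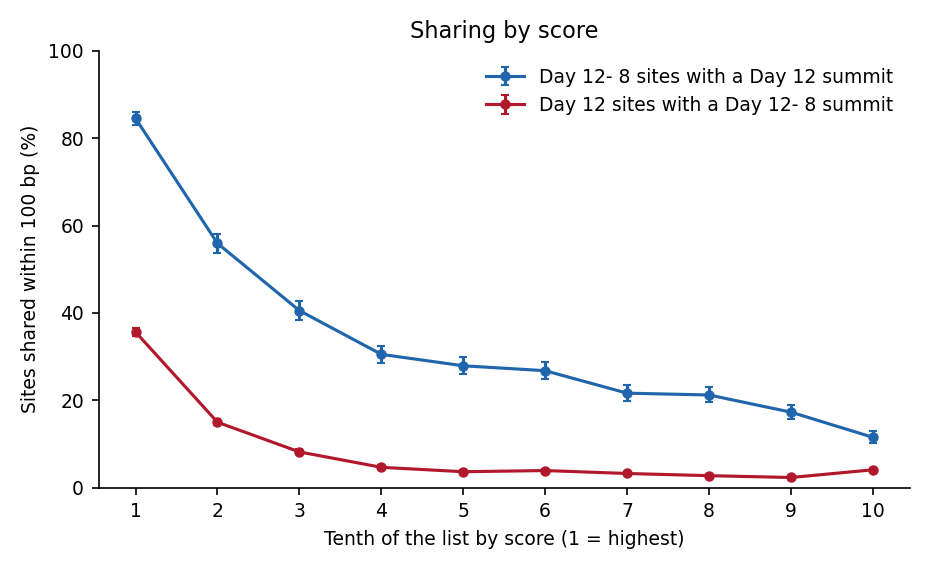
Share of sites with a summit of the other list within 100 bp, in percent, for 10 equal parts of each list in order of score (1 holds the highest scores). Points are shares and bars are exact 95% intervals; Day 12- 8 sites are in blue and Day 12 sites in red. The share ran from 84.5% in part 1 to 11.6% in part 10 of the Day 12- 8 list, and from 35.7% to 4.13% in the Day 12 list. Each part was searched against the whole other list, and the Day 12 list is the longer.

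High-scoring Day 12- 8 sites were nearly all Day 12 sites too. In its top 100 sites 96 were shared, and in its top 1000 sites 908 (90.8%, 88.8 to 92.5). In the reverse direction the shares were lower: 72 of the top 100 Day 12 sites and 541 of the top 1000 (54.1%, 51.0 to 57.2) had a Day 12- 8 summit. Each top set was searched against the whole other list. The Day 12 list was 4.04 times as long, which makes a match likelier for Day 12- 8 sites. Only 275 shared sites stood in the top 1000 of both lists. The 7227 shared sites had median scores of 10.9 in Day 12- 8 and 50.2 in Day 12, and 1175 of them (16.3%) had the higher score in Day 12- 8. Their scores ranked alike to a degree (Spearman 0.66 over sites, which share their libraries), and their summits lay a median of 36 bp apart.

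New sites were weakly called and often lay beside a Day 12 site. Their median Day 12- 8 score was 6.34, against 10.9 for the shared sites of that list, and 12 of them scored at least 100. A Day 12 summit lay within 500 bp of 35.4% (34.6 to 36.2) of new sites and within 2 kb of 55.5% (54.7 to 56.3). Missing sites were more isolated from the Day 12- 8 list, with a summit within 500 bp of 6.59% (6.41 to 6.76) and within 2 kb of 15.8% (15.5 to 16.0). The Day 12 list being longer makes such a neighbour likelier for new sites. In the equal-length lists the shares within 500 bp were 16.5% for new and 15.8% for missing sites. Missing sites had a median Day 12 score of 7.80, yet 4152 of them scored at least 100.

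Of the 8 highest-scoring kept sites 6 lay within 1 kb of either end of a gene. The top site of the Day 12- 8 list lay inside Tsc22d1, a leucine zipper transcription regulator (chromosome 14, 76506652), and scored 798 in Day 12- 8 and 636 in Day 12. It was called in every other list, scoring 416 (Day 0), 692 (Day 4), 14.7 (Day 8), 724 (Day 12- 4) and 703 (Day 12- 12). Others were at Prr14l (637 in Day 12- 8 and 509 in Day 12), the Dusp5 promoter site shown above, and Slc22a15, a solute carrier (504 and 414). Sites in Tatdn1 and Plekhg1 scored 481 and 481 in Day 12- 8, against 557 and 437 in Day 12. Another, 156 bp outside the zinc transporter gene Slc39a13 (chromosome 2, 91070597), scored 480.1 in Day 12- 8 and 534 in Day 12. It also lies upstream of Spi1, more than 10 kb from that gene, and was not called at Day 4 or Day 8. All 8 were among the sites called at Day 0, with scores of 112 to 490.3 there. Since these sites were ranked by their Day 12- 8 score, nothing is read from which list had the higher one.

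Missing sites reached scores of up to 852 in the Day 12 list, whose highest score was 904. Of those with no Day 12- 8 summit within 500 bp, the first lay inside Adcy7, an adenylate cyclase (chromosome 8, 88300413), and scored 852 in Day 12, with the nearest Day 12- 8 summit 27871 bp away. The second was 5.58 kb outside Ptpn1, a tyrosine phosphatase that restrains cytokine and insulin signalling (chromosome 2, 167925174), and scored 849. A site 256 bp outside Zc3h12a, an endonuclease that degrades inflammatory mRNAs (chromosome 4, 125118158), scored 844. Its nearest Day 12- 8 summit was 947 bp away and scored 5.40. The other 5 were nearest to Lrrc28 (51.3 kb away), Ckap4, Nfkb1, Piezo1 and Zswim4, with Day 12 scores of 739 to 778. Nfkb1 encodes a subunit of NF-kappaB and Piezo1 a mechanically gated ion channel. All 8 were called at Day 4 and Day 8, in the Day 12- 4 list at scores of 11.4 to 58.0 and in the Day 12- 12 list at 188 to 340.3. At Day 0 only those at Nfkb1 (8.49) and Piezo1 (3.29) were called.

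The highest-scoring new site reached 282 in Day 12- 8. Sites named here are the 8 highest with no Day 12 summit within 500 bp, a filter also set for the missing sites above. They scored 112 to 71.3 in Day 12- 8 and lay 598 to 1372 bp from a Day 12 summit. A site 24.8 kb inside Elf2, an ETS-family gene (chromosome 3, 51277517), scored 77.2 in Day 12- 8 and lay 1372 bp from a Day 12 site of 457. It was called at Day 0 with a score of 105 and at Day 4 with 20.1. The site inside Derl2, a gene for degradation of misfolded proteins (chromosome 11, 71019263), scored 74.9 and lay 598 bp from a Day 12 site of 398. The site inside Ankrd44 scored 71.3 and lay 679 bp from a Day 12 site of 359. It was called in all 5 other lists, at 12.2 (Day 4) to 201 (Day 8). Of the remaining 5, those nearest to Cfl1, Tpm3 and Trmt2a lay inside these genes. The highest of the 8 (112, chromosome 9, 3001376) lay 333.9 kb from its nearest gene, Alkbh8, and another lay 68.6 kb from Kcnrg. No filter for repeat or artefact regions was applied here to any list. The Trmt2a entry is the same summit as the Ranbp1 promoter site shown above. That summit too was called in all 5 other lists, at 20.8 (Day 12- 4) to 213 (Day 8). Apart from it and the Ankrd44 site, each of the 8 was called in some of these lists and not in all. In the equal-length lists, under the same filter, the 5 highest sites of each class were the first 5 of the full lists.

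The classes differed in their distance from gene ends, meaning either boundary of a gene, its start or its far end. Within 1 kb of the end of a protein-coding gene lay 57.0% (55.8 to 58.1) of kept sites, 38.0% (37.2 to 38.8) of new sites and 14.2% (13.9 to 14.4) of missing sites. Within 1 kb of a gene start, known from the promoter windows, lay 50.7% of kept, 32.3% of new and 9.36% of missing sites. Over the whole lists the share near either end was 44.4% of Day 12- 8 and 17.7% of Day 12 sites. In the equal-length lists the shares were 69.6% for kept, 37.2% for new and 25.7% for missing sites. Inside genes and over 1 kb from any end were 55.4% (55.0 to 55.7) of missing sites, against 28.7% of kept and 38.0% of new sites and 53.1% of all Day 12 sites. On equal-length lists that share of missing sites was 45.9%. A further 21.2% of missing sites lay over 10 kb from any gene, against 9.64% of kept and 18.8% of new sites.

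The split was also present within ranges of the Day 12 score. Among Day 12 sites scoring at least 200, 64.4% of those within 1 kb of a gene end were kept, against 29.9% of the others. Between 100 and 200 the shares were 49.5% and 15.4%. Between 20 and 50 they were 29.3% and 5.44%, and under 10 they were 8.56% and 2.71%.

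**Figure D2:**
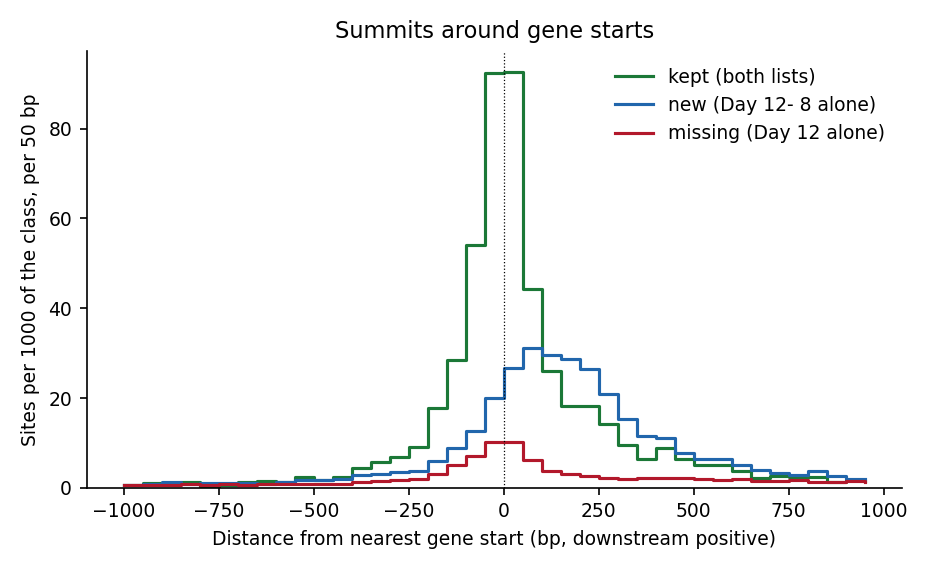
Sites per 1000 of each class in 50 bp steps by distance from the nearest gene start, in bp with downstream positive, for kept (green), new (blue) and missing (red) sites. Kept sites peaked at the start, at 92.7 per 1000 in the first 50 bp downstream, while new sites were highest between 50 and 100 bp downstream, at 31.2 per 1000, and missing sites reached 10.3.

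Around gene starts the summits of kept and new sites fell at different places. Of sites within 1 kb of a start, the median position was 6 bp downstream for the 3666 kept sites, 147 bp downstream for the 4574 new sites and 25 bp downstream for the 7399 missing sites.

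The motif content of promoter summits also differed between classes. The 101 bases around the summit could be read for 1679 kept, 885 new and 2543 missing sites that fell well inside the promoter windows. These windows end 50 bases past the start, so summits well downstream of it could not be read. New sites often lay there, and the 885 read, of 14150, need not represent the class. New sites were also not compared with the others within ranges of score. The letters GAGGAA, on either strand, stood in 20.6% (18.7 to 22.6) of kept, 6.33% (4.81 to 8.14) of new and 16.3% (14.9 to 17.8) of missing sequences. In the 101 bases up to the start of all 21238 promoter windows the share was 9.34%. The longer form GAGGAAGT, which holds GAGGAA, was found in 5.18%, 0.226% and 4.13%, against 1.03% of all windows. The element CCGGAAGT, a form that other ETS factors are known to bind, stood in 10.2% (8.78 to 11.7) of kept, 1.92% (1.12 to 3.06) of new and 4.64% (3.86 to 5.53) of missing sequences, against 2.79% of all windows. The bare core GGAA, which all of these motifs hold, was in 88.2%, 54.9% and 76.5%, against 65.9% of all windows. Mean GC content was 68.6% for kept, 71.7% for new and 62.7% for missing sequences and 58.7% for all windows. Its part in these shares was not tested.

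**Figure D3:**
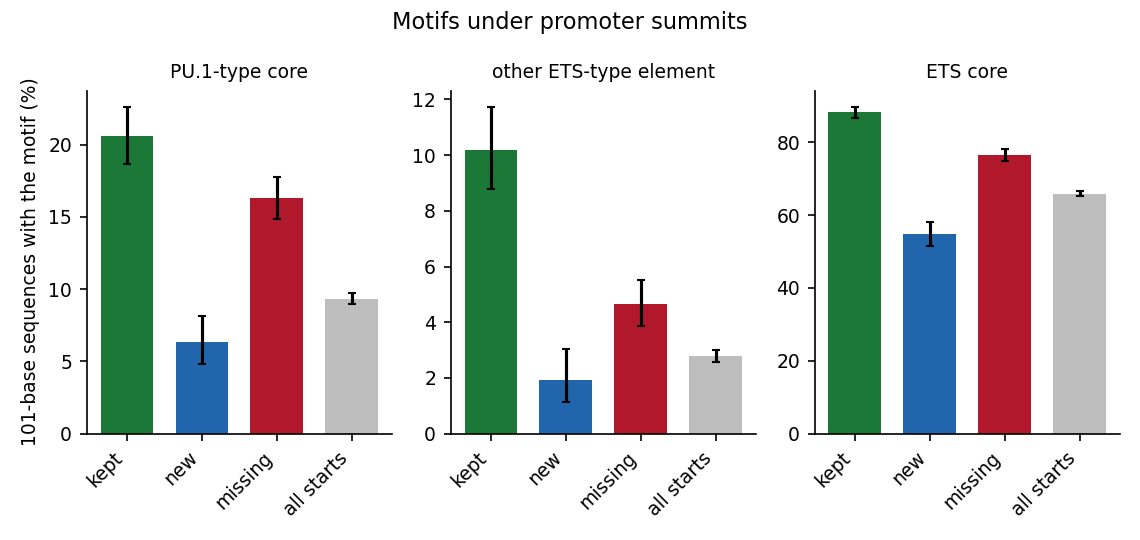
Share of 101-base sequences holding a PU.1-type core, another ETS-type element and the bare ETS core, in percent, for kept, new and missing promoter summits and for the bases up to all gene starts. Bars are shares with exact 95% intervals, and each panel has its own axis from 0. New sites lie lowest in all 3 panels, for the PU.1-type core at 6.33%, against 20.6% of kept sites. Summits well downstream of the start could not be read, and classes were not matched for score.

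The gap between kept and missing sequences varied with score. At Day 12 scores of at least 100, GAGGAA stood in 28.6% (25.6 to 31.7) of kept and 24.6% (21.0 to 28.3) of missing sequences, and CCGGAAGT in 10.9% and 9.25%. Between 20 and 100, GAGGAA stood in 12.9% (10.3 to 16.0) and 14.3% (12.0 to 16.7), with CCGGAAGT in 11.7% (9.15 to 14.6) and 4.93% (3.62 to 6.55). Under 20, GAGGAA stood in 7.80% (4.61 to 12.2) of kept and 13.7% (11.7 to 15.9) of missing sequences. Thus the PU.1-type core was not the more frequent among kept sites at every score.

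The other 5 lists gave a readout that the class rule did not use. The share of kept sites with a summit within 100 bp was 25.3% (Day 0), 30.9% (Day 4), 54.5% (Day 8), 34.1% (Day 12- 4) and 58.9% (Day 12- 12). For new sites the shares were 11.7% (Day 0), 0.799% (Day 4), 5.63% (Day 8), 4.95% (Day 12- 4) and 10.7% (Day 12- 12). Missing sites had 1.09% (Day 0), 22.7% (Day 4), 20.3% (Day 8), 5.88% (Day 12- 4) and 45.7% (Day 12- 12), so they were below new sites at Day 0 and above them in the other 4 lists at this distance. Within 500 bp new sites had 21.4% (Day 0), 10.1% (Day 4), 15.8% (Day 8), 8.33% (Day 12- 4) and 31.2% (Day 12- 12), and missing sites 2.77, 30.1, 24.8, 7.63 and 68.2%, so the order in Day 12- 4 turned. These shares also depend on the lengths of those lists, the shortest being that of Day 0 and the longest, with 148415 sites, that of Day 12- 12.

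**Figure D4:**
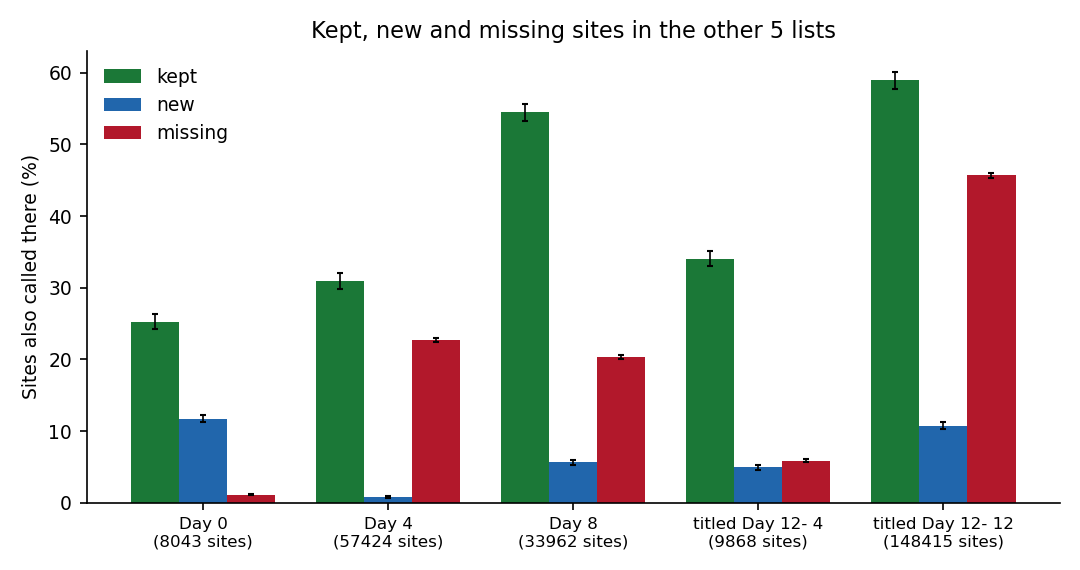
Share of kept (green), new (blue) and missing (red) sites with a summit within 100 bp in each of the other 5 lists, in percent, with exact 95% intervals and the length of each list under its name. New sites stand above missing ones at Day 0 (11.7% against 1.09%) and below them at Day 4 (0.799% against 22.7%), as they also do within 500 bp (21.4% against 2.77% and 10.1% against 30.1%).

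In none of the other 5 lists were 23.6% of kept, 73.3% of new and 42.6% of missing sites. In all 5 were 10.1% of kept sites, 0.0848% of new sites and 0.516% of missing sites. Among the 16627 missing sites of the equal-length comparison, 60.2% (59.5 to 61.0) were called at Day 4 and 67.2% (66.5 to 68.0) in Day 12- 12, and 3.85% (3.56 to 4.15) at Day 0. For the 4750 kept sites of that comparison the shares were 46.8% (Day 4), 72.4% (Day 12- 12) and 33.8% (Day 0). Missing sites thus stood above kept ones at Day 4, the reverse of the order on full lists. New sites there had 0.752% (Day 4), 14.1% (Day 12- 12) and 11.4% (Day 0).

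Genes were compared by whether any site lay in the gene body or within 10 kb of it. Of 21887 protein-coding genes, 13524 had a site in Day 12- 8 and 16874 in Day 12. Genes with a site in both (kept) numbered 12936, or 59.1% of all genes, those with a site in Day 12 alone (missing) 3938, or 18%, and those with a site in Day 12- 8 alone (new) 588, or 2.69%. In the equal-length lists the counts were 10707 (48.9%) kept, 1769 (8.08%) missing and 2817 (12.9%) new genes. A kept gene need not share a site: 7808 of the 12936 (60.4%) held a shared summit and 5128 did not. The highest site of a gene had a median Day 12 score of 97.2 in kept and 15.5 in missing genes, and a median Day 12- 8 score of 11.0 in kept and 5.99 in new genes. Median gene length was 22.4 kb for kept, 18.2 kb for missing and 18.9 kb for new genes, and 4.44 kb for genes with no site in either list. Over all genes with a site the median of the highest scores was 10.6 in Day 12- 8 and 67.1 in Day 12, and 35.7% of all genes held a shared summit.

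Spi1, which encodes PU.1 (chromosome 2, 91082374 to 91115759), had 4 sites within 10 kb in Day 12- 8 and 12 in Day 12, and 3 were shared. The site just inside the gene scored 142 in Day 12- 8 (91083075) and 674 in Day 12 (91083095). A second shared site inside the gene scored 8.78 in Day 12- 8 (91096712) and 305 in Day 12 (91096710), and the other, outside it, 9.41 and 19.6. Of the 9 Day 12 sites around Spi1 with no Day 12- 8 call, the highest scored 374 (91084728), and its nearest Day 12- 8 summit was 1653 bp away. The shared site near Slc39a13 named above (91070597) lies beyond the 10 kb window. It scored 480.1 in Day 12- 8, more than any Day 12- 8 site within that window.

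Receptors for cytokines and growth factors carry the signals that keep myeloid cells alive and dividing. Of 20 receptor genes 18 were kept and 2 were missing on full lists, beside 59.1% kept and 18% missing over all genes. On equal-length lists 15 were kept, 2 missing and 3 new, beside 48.9, 8.08 and 12.9%. A shared summit was held by 13, beside 35.7% of all genes. Their median highest score was 8.68 in Day 12- 8 and 186 in Day 12. Csf2ra, the alpha chain of the GM-CSF receptor, had 5 sites in Day 12- 8 and 2 in Day 12, with a shared site inside it at scores of 154 and 469. That site was called in all 5 other lists, at 56.6 at Day 0 to 197 at Day 8. Il6ra, the interleukin-6 receptor, had 2 sites in Day 12- 8 and 11 in Day 12, with a shared site of 68.7 and 306. The missing genes were Csf2rb2, a beta chain for IL-3 in mice, with 0 sites in Day 12- 8 and 9 in Day 12 (highest 95.6), and Il10ra, with 0 and 3 (highest 21.3). The Csf2rb2 site was also called in 4 other lists, scoring 182 (Day 4), 98.0 (Day 8), 8.53 (Day 12- 4) and 40.8 (Day 12- 12).

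Integrins and their partners, which let leukocytes adhere, included 8 kept and 4 missing genes of 13, beside 59.1% and 18% of all genes. On equal-length lists 7 were kept, 3 missing and 1 new, beside 48.9, 8.08 and 12.9% of all genes. Their median highest score was 10.0 in Day 12- 8 and 138 in Day 12. The missing genes were Itgam, Itgax, Itgb2 and Cd44. Itgam encodes CD11b and had 0 sites in Day 12- 8 and 7 in Day 12, with a highest score of 39.7 (chromosome 7, 128115469). That position had no call within 100 bp in the other 5 lists. Itgb2, the beta chain that pairs with CD11b, had 0 sites in Day 12- 8 and 18 in Day 12, with a highest score of 401 inside the gene. Its top site also scored 93.6 (Day 4), 54.6 (Day 8), 11.6 (Day 12- 4) and 122 (Day 12- 12). Talin, the cytoskeletal activator of integrins encoded by Tln1, was kept with a shared site of 101 in Day 12- 8 and 344 in Day 12. Fermt3, the haematopoietic kindlin, was kept with 17.7 and 138.

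Fc receptors, their signalling adaptors and lectins let myeloid cells take up and sense their targets. Of 18 genes of this list 6 were kept and 11 were missing on full lists, beside 59.1% and 18% of all genes. On equal-length lists 6 were kept and 6 missing, beside 48.9% and 8.08%. A shared summit was held by 3 of the 18, beside 35.7% of all genes. Median highest scores were 23.7 in Day 12- 8 and 71.9 in Day 12. Cd300a, an inhibitory receptor, had a shared site of 62.3 in Day 12- 8 and 778 in Day 12, called in all 5 other lists at 16.4 at Day 0 to 379 in Day 12- 12. Tyrobp, which encodes the adaptor DAP12, had a shared site 4.74 kb outside the gene, at 38.0 and 295. Its highest Day 12 site, inside the gene, scored 406, and the Day 12- 8 summit nearest to it was 8504 bp away. Cd300lf had 0 sites in Day 12- 8 and 4 in Day 12, and its highest site of 414 was called at 602 at Day 4. Pirb, a paired inhibitory receptor, had 0 sites in Day 12- 8 and 4 in Day 12 (highest 198).

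Sensors of microbes showed 10 kept and 7 missing genes of 19, beside 59.1% and 18% of all genes. On equal-length lists 9 were kept, 6 missing and 1 new, beside 48.9, 8.08 and 12.9%. Median highest scores were 13.2 in Day 12- 8 and 99.1 in Day 12. Irak4 and Irak1, kinases below the Toll-like receptors, were kept with shared sites of 29.9 and 78.8 in Day 12- 8 and 414 and 258 in Day 12. Ticam1, the adaptor TRIF, had 0 sites in Day 12- 8 and 9 in Day 12 (highest 239, 30 bp outside the gene). Tlr4, the lipopolysaccharide receptor, had 0 sites in Day 12- 8 and 1 in Day 12, of 126. That site was called at Day 0 (3.32), at Day 4 (369.7) and in both Day 12- 4 (23.5) and Day 12- 12 (33.1), and not at Day 8.

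The NADPH oxidase makes superoxide in phagocytes. Of its 7 genes 5 were kept on full and on equal-length lists, beside 59.1% and 48.9% of all genes. All 5 held a shared summit, against 35.7% of all genes. Median highest scores were 12.1 in Day 12- 8 and 485 in Day 12. Rac1, a GTPase found in all cells, had a shared site of 46.8 in Day 12- 8 and 134 in Day 12. Ncf4, a cytosolic subunit, had one of 12.8 and 765. Cybb, the membrane catalytic subunit, had 0 sites in Day 12- 8 and 1 in Day 12 (10.5).

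Granule and lysosome genes showed 10 kept and 9 missing of 20, beside 59.1% and 18% of all genes. On equal-length lists 8 were kept, 3 missing and 2 new, beside 48.9, 8.08 and 12.9%. With the gene body alone 5 were kept, beside 9034 of all 21887 genes. Their scores were low in both lists, with medians of 8.39 in Day 12- 8 and 22.7 in Day 12. Cd68, a lysosomal protein of macrophages, had a shared site of 40.9 and 294 that lay 1.52 kb outside it. Cd63 had a shared site of 12.5 and 22.4. Mmp9, a matrix metalloproteinase, had 0 sites in Day 12- 8 and 8 in Day 12 (highest 79.7), and Lcn2, an iron-scavenging granule protein, 0 and 7 (highest 64.2).

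Myeloid transcription factors and signalling genes were counted beside 59.1% kept, 18% missing and 2.69% new over all genes on full lists. On equal-length lists these shares over all genes were 48.9, 8.08 and 12.9%, and 35.7% of all genes held a shared summit on full lists. Of 24 transcription factor genes 20 were kept, 11 of the 24 with a shared summit, 2 were missing and 2 new, and 19 were kept, 2 missing and 3 new on equal-length lists, with median highest scores of 12.4 in Day 12- 8 and 161 in Day 12. Junb, a subunit of AP-1, had 6 sites in Day 12- 8 and 8 in Day 12, with a shared site at 130.4 and 407. Cebpe, a factor of granulocyte maturation, had 0 sites in Day 12- 8 and 8 in Day 12 (highest 408), and Irf4 had 0 and 2 (highest 27.9). The new genes were Klf4, with 4 sites in Day 12- 8 (highest 12.8) and 0 in Day 12, and Maf, with 1 (3.85) and 0. Of 20 signalling genes 17 were kept and 3 missing on both full and equal-length lists, 16 held a shared summit, and median scores were 28.7 in Day 12- 8 and 424 in Day 12. Vav1, an exchange factor for small GTPases, had a shared site of 216 and 681 at the gene end, called in all 5 other lists. Csk, the kinase that restrains Src kinases, had one of 128 and 385. Missing genes included Inpp5d, the lipid phosphatase SHIP, with 0 sites in Day 12- 8 and 17 in Day 12 (highest 443), and Blnk (0 and 6, highest 97.4). Dok3 counted as kept through 3 Day 12- 8 sites of at most 5.99, none of them shared, while its promoter site shown above was missing.

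Genes linked to stem cells and leukaemia were kept in 19 of 24 cases and missing in 3, beside 59.1% and 18% of all genes. A shared summit was held by 7 (29.2%, against 35.7% of all genes), and with the gene body alone 12 were kept, beside 9034 of all 21887 genes. On equal-length lists 15 were kept, 1 missing and 4 new, beside 48.9, 8.08 and 12.9% of all genes. Median highest scores were 9.88 in Day 12- 8 and 61.1 in Day 12. Etv6, an ETS repressor, had a shared site of 92.9 in Day 12- 8 and 308 in Day 12. Flt3, a receptor kinase of progenitors, had one of 52.4 and 159.5. Myb, a factor of immature blood cells, had 0 sites in Day 12- 8 and 8 in Day 12 (highest 71.9), and Lmo2 had 0 and 3 (highest 13.4).

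Genes that all dividing cells use were nearly all kept with the window of 10 kb. Over all genes 59.1% were kept on full and 48.9% on equal-length lists, and 35.7% held a shared summit on full lists. With the gene body alone 15 of 23 translation, 19 of 25 cell cycle and 12 of 25 housekeeping genes were kept, beside 9034 of all 21887 genes. All 23 translation genes were kept on full and on equal-length lists, 15 of them with a shared summit, and so were 24 of 25 cell cycle genes and 22 of 25 mitochondrial, proteasomal and other housekeeping genes on full lists. Median highest scores in the translation list were 16.6 in Day 12- 8 and 295 in Day 12, in the cell cycle list 16.8 and 179, and in the housekeeping list 19.5 and 198. Mki67, a marker of cycling cells, had a shared site of 154 in Day 12- 8 and 283 in Day 12, and Mcm7, a subunit of the replicative helicase, one of 128 and 538. Top2a, a topoisomerase, had 0 sites in Day 12- 8 and 2 in Day 12 (highest 60.5). Ndufa9, a subunit of respiratory complex I, had 0 and 1 (212), and Psmc1, a proteasome ATPase, 0 and 5 (highest 69.5). Atp5a1 was also missing.

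**Figure D5:**
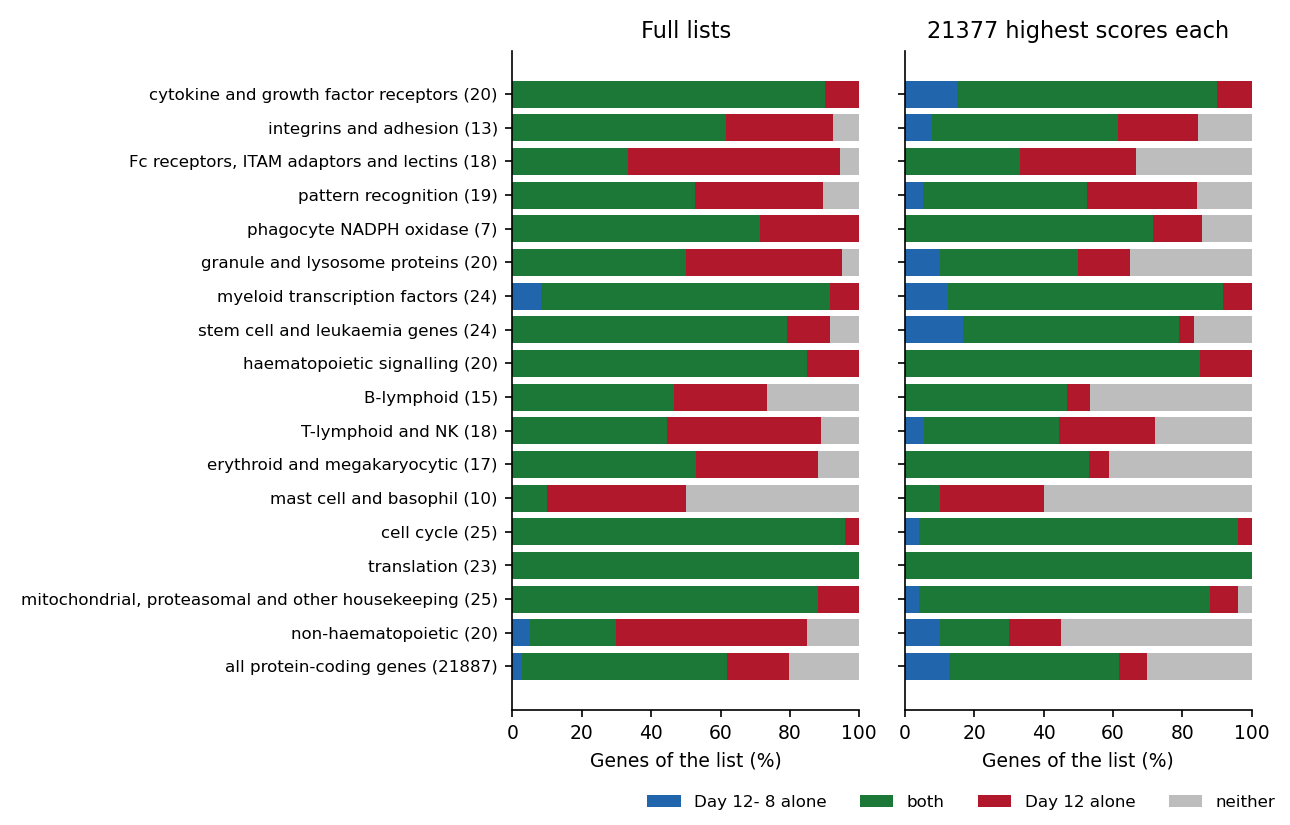
Percent of the genes of each list, and of all protein-coding genes in the bottom bar, with a site in Day 12- 8 alone, in both lists, in Day 12 alone or in neither, for the full lists (left) and the lists of equal length (right). The number of genes stands beside each name. On full lists translation, cell cycle and cytokine receptor genes were in both most often, and mast cell, non-haematopoietic and Fc receptor genes least often.

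Marker genes of other lineages were counted in the same way, beside 59.1% kept, 18% missing and 2.69% new over all genes on full lists. On full lists 7 of 15 B-lymphoid genes were kept and 4 missing, 8 of 18 T-lymphoid and NK genes kept and 8 missing, 9 of 17 erythroid and megakaryocytic genes kept and 6 missing, and 1 of 10 mast cell and basophil genes kept and 4 missing. Of 20 non-haematopoietic genes 5 were kept, 11 missing and 1, Sftpc, new (4.89 in Day 12- 8). On equal-length lists the kept counts were 7, 7, 9, 1 and 4 of the same 5 lists, beside 48.9% of all genes. Median highest scores were 12.8 in Day 12- 8 and 85.3 in Day 12 for the B-lymphoid list and 7.12 and 14.6 for the non-haematopoietic one. Among kept genes, Cd79a, a chain of the B cell receptor complex, had a shared site 1.21 kb outside it at 41.9 in Day 12- 8 and 166 in Day 12. Vwf, the von Willebrand factor gene, had one of 23.5 and 599.8. Missing genes included Gfi1b, a repressor of erythroid and megakaryocytic cells, with 0 sites in Day 12- 8 and 5 in Day 12 (highest 445), and Hdc, the enzyme that makes histamine, with 0 and 5 (highest 459). Cd5, a T and B cell surface protein, had 0 sites in Day 12- 8 and 11 in Day 12 (highest 278). A site within 10 kb can belong to a neighbouring gene, so these counts do not show a lineage among the cells.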

How the data were processed

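Each deposited file lists peak summits of a single library, with no header. Per the submitters' processing notes, MACS2 and mm10 were used. The score column was read as the −log10 q-value the authors deposited for each peak, since the lowest scores lie just above MACS2's usual q limit. Aligner, MACS2 version, control library, depth, read filters and pooling are not given in the sources used here, so the depth is unknown.

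Libraries were grouped by title. Analysis used pandas 2.3.3, numpy 2.4.6 and scipy 1.17.1 under Python 3.11.15, with figures drawn in matplotlib 3.10.9. Summits within 100 bp were shared, and equal-length lists took the highest scores. Gene positions came from a RefSeq table of GRCm38.p6 (mm10 coordinates) with 21887 protein-coding genes, without strand or exons, so sites were not assigned to exons, introns or UTRs. Gene starts and strand came from RefSeq promoter windows, 250 bases upstream and 50 downstream, for 17469 of these genes; no genome sequence was used here. Motifs were searched on both strands. Sharing, gene windows and motifs were tested on simulated data. Intervals are exact Clopper-Pearson 95% intervals over sites. Sites on the mitochondrial chromosome and unplaced scaffolds count in list totals and site classes, and in no gene count.

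The members and the 17 gene lists (318 entries, all matched) were chosen with earlier results of these data known. Named sites were the 8 highest-scoring of each class, missing and new ones with no summit of the other list within 500 bp. Named genes were, in each list, the 2 kept, missing and new genes with the highest scores, plus Spi1 and Itgam; other genes were named after their values were seen, where a count was small. Some genes that these rules pick are not reported here. Alternatives were other sharing distances, also for calls in the other lists, score minimums, list lengths and gene windows.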

Additional observations from a re-analysis of the deposited data

Results flagged for a closer look

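The Day 12- 8 list held 5 sites on the mitochondrial chromosome, counted among its new sites and not described above. They scored 5.63, 28.1, 48.9, 51.1 and 68.2, against 0 such sites in the Day 12 list. The Day 0 list held 3, with scores of 10.8, 13.8 and 21.5, and the remaining 4 lists held 0. Why they were called was not tested.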

How the results depend on the processing

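Sharing moved with the distance allowed. The shared part of the Day 12- 8 list was 21.6% at 50 bp, 49.0% at 250 bp, 57.2% at 500 bp and 70.6% at 2 kb, the last chosen after seeing the data. That of the Day 12 list was 5.34, 12.2, 14.4 and 22.8%. With scores of at least 10 in both lists the shares were 55.6% of Day 12- 8 and 9.87% of Day 12 sites, and with at least 20 they were 79.8 and 9.14%. Equal-length lists shared 14.7% at 50 bp and 35.1% at 500 bp, 30.0% among the 10000 highest scores, 35.6% among the 5000 highest and 32.3% at the length of the shortest list. Mutual nearest summits, autosomes alone and another order of ties moved these shares by less than their intervals.

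With scores of at least 10, 7008 genes were kept, 7345 missing and 202 new on full lists, and 6787, 5689 and 423 on equal-length lists, so missing then outnumbered kept genes on full lists. In the gene body alone 1209 genes were new on full lists and 6234 kept on equal-length lists, and with 50 kb 1092 were missing on equal-length lists. Requiring a shared summit, added after seeing the data, left 7808 kept genes. The other 21 counts over all genes stayed within 1.5 times. Of the gene lists, 7 kept counts moved with the gene body alone: Fc receptors 3 (from 6), granule 5 (10), stem cell 12 (19), B-lymphoid 4 (7), mast cell 0 (1), translation 15 (23) and housekeeping 12 (22). Over all genes the kept count fell as well, to 9034 from 12936 on full lists.

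Sites near a gene end made up 49.4% of kept, 29.0% of new and 9.33% of missing sites within 500 bp, 73.3, 57.0 and 34.8% within 5 kb, and 69.6, 37.2 and 25.7% on equal-length lists, so the order of the classes held in each. With 500 bp in place of 100 bp, all 15 shares of the 3 classes called in the other 5 lists were larger. Causes of these moves were not tested beyond the changed construction itself. No paired analysis was possible because each time point has 1 library. Depth and control are unknown, so fewer bound sites and a lower depth cannot be told apart in a shorter list.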

Other observations

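Some genes held many sites. Gse1 (chromosome 8, 120228501 to 120581383) had 40 sites in Day 12- 8 and 174 in Day 12, of which 18 were kept, 156 missing and 22 new, the most missing sites of all protein-coding genes. Camta1, Cdh23 and Zfp469 came next, with 104, 100 and 94 missing sites. Camta1 had 17 sites in Day 12- 8 and 107 in Day 12, and 3 Day 12 sites were kept.

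Plec, which encodes the cytoskeletal linker plectin, had 17 sites in Day 12- 8 and 27 in Day 12, and none was shared. By contrast Zfpm1, a cofactor of GATA factors, had 11 sites in Day 12- 8 and 43 in Day 12, with 9 kept, and Arid3a had 15 and 25, with 8 kept. Zfpm1 and Arid3a were named after their counts of kept sites were seen.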
